A study of Mus musculus with 6 samples.

Results

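Genes that make, sense, take up and break down prostaglandin E2 were followed in 2 mouse keratinocyte lines. The 10 genes were taken by symbol for these known roles, out of 24982 symbols listed in each library, and are *Ptgs1*, *Ptgs2*, *Ptges*, *Ptges2*, *Ptges3*, *Ptger1*, *Ptger2*, *Ptger4*, *Slco2a1* and *Hpgd*. RNA-seq of poly(A) RNA was compared between 3 libraries of KSFM-Ca2+ cells and 3 libraries of DKSFM cells, and neither line was treated with any agent. KSFM-Ca2+ cells are a line of epidermal keratinocytes from newborn C57/BL6 mice that was derived and kept in a low-calcium serum-free medium. DKSFM cells descend from KSFM-Ca2+ cells that were moved to a defined serum-free medium with more calcium, where most cells were lost and the survivors were expanded. Medium, calcium and the selection of survivors changed together between the lines and cannot be told apart. The nature of the replicates (cultures, passages or extracts) is not stated in the sources used here, so p-values measure only the spread between these libraries.

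Prostaglandins are made from arachidonic acid, which phospholipases free from membrane lipids. The cyclooxygenases *Ptgs1* and *Ptgs2* turn it into the unstable intermediate PGH2, which terminal synthases convert to prostaglandin E2. Prostaglandin E2 leaves the cell, acts on G protein-coupled receptors of the EP family and is cleared by uptake and oxidation, and in skin it takes part in inflammation, wound repair and keratinocyte growth.

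The value for each gene was its mean read coverage per base, listed to 1 decimal, so levels can be compared between genes per length. Coverage summed over genes was 1601676, 1238411 and 1057750.5 in KSFM-Ca2+ replicates 1 to 3 and 1174348, 1239438 and 1170675 in DKSFM replicates 1 to 3. Normalized coverage is the listed value after scaling between libraries. Log2(normalized coverage + 0.1) was tested with limma, run on the 12409 genes that reached a normalized coverage of 0.5 in 3 or more libraries, and a gene passed at a Benjamini-Hochberg adjusted p under 0.01. Fold changes are DKSFM over KSFM-Ca2+ on that scale, which understates the change of genes with low coverage.

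All 6 keratinocyte markers were present in both lines, led by *Krt14* with a mean normalized coverage of 11975 in the KSFM-Ca2+ cells and 29719 in the DKSFM cells. The summed normalized coverage of the 6 markers was 18916, 19321 and 18960.2 in the KSFM-Ca2+ libraries and 44799, 40886 and 45176 in the DKSFM libraries. Most of this sum came from *Krt14* and *Krt5*, and *Itgb4* was lower in the DKSFM cells, with a mean of 192 against 321. The fibroblast markers *Col1a1*, *Col1a2*, *Col3a1*, *Dcn* and *Lum* were listed at 0 in all 6 libraries, and only *Pdgfra* was above 0 among 6 markers. Also listed at 0 everywhere were *Adgre1* and *Aif1* among 6 leukocyte markers and *H2-Aa* and *H2-Ab1* among 4 Langerhans cell markers. So were *Cpa3*, *Kit* and *Mcpt4* among 5 mast cell markers, *Dct* and *Tyr* among 5 melanocyte markers, and *Cdh5* and *Vwf* among 5 endothelial markers. The leukocyte marker *Ptprc* was listed at 0.1 in DKSFM replicate 2. The Langerhans cell marker *Cd207* was listed at 0.1 in replicate 2 of each line. The summed normalized coverage of the leukocyte markers, nearly all of it from *Cd14*, was 8.92, 8.41 and 10.3 in the KSFM-Ca2+ libraries against 4.14, 4.10 and 3.18 in the DKSFM libraries. That of the endothelial markers, led by *Pecam1*, was 2.82, 3.16 and 3.30 against 8.28, 8.29 and 7.42, and *Pdgfra* gave 1.14, 0.890 and 1.30 against 2.34, 2.10 and 2.23. The Langerhans cell markers, led by *Cd74*, summed to 1.22, 1.58 and 1.89 against 0, 0.0999 and 0. The mast cell markers summed to 0.915, 1.09 and 0.590 against 0, 0.200 and 0.212. That sum was all *Cma1* in the KSFM-Ca2+ libraries and all *Hdc* in the DKSFM libraries, so these markers went opposite ways. The melanocyte markers, led by *Pmel*, summed to 0.533, 0.890 and 0.708 against 0.318, 0.600 and 0.212. The part of such cells in the values of the prostaglandin genes was not tested. In bulk libraries such as these, fewer cells that express a gene and less RNA of that gene per cell cannot be told apart.

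Of the 10 genes, 7 passed the filter on low values. The adjusted p was under 0.01 in 6 of these 7 genes, as it was in 72.6% of all tested genes, so that this count alone does not set the genes apart. Higher in the DKSFM cells by 2-fold or more were 2 genes, *Ptger4* and *Slco2a1*, where 13.2% of all tested genes passed both limits in that direction. Higher in the KSFM-Ca2+ cells by 2-fold or more were 3 genes, *Ptgs1*, *Ptgs2* and *Ptges*, where 10.5% of all tested genes passed both limits. The libraries of the lines did not overlap for 6 of the 7 genes, against 83.3% of all tested genes. *Ptger4* passed the filter only through the DKSFM libraries, so these counts are a description. The other 3 genes, *Ptger1*, *Ptger2* and *Hpgd*, were too low to be tested.

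**Figure D1:**
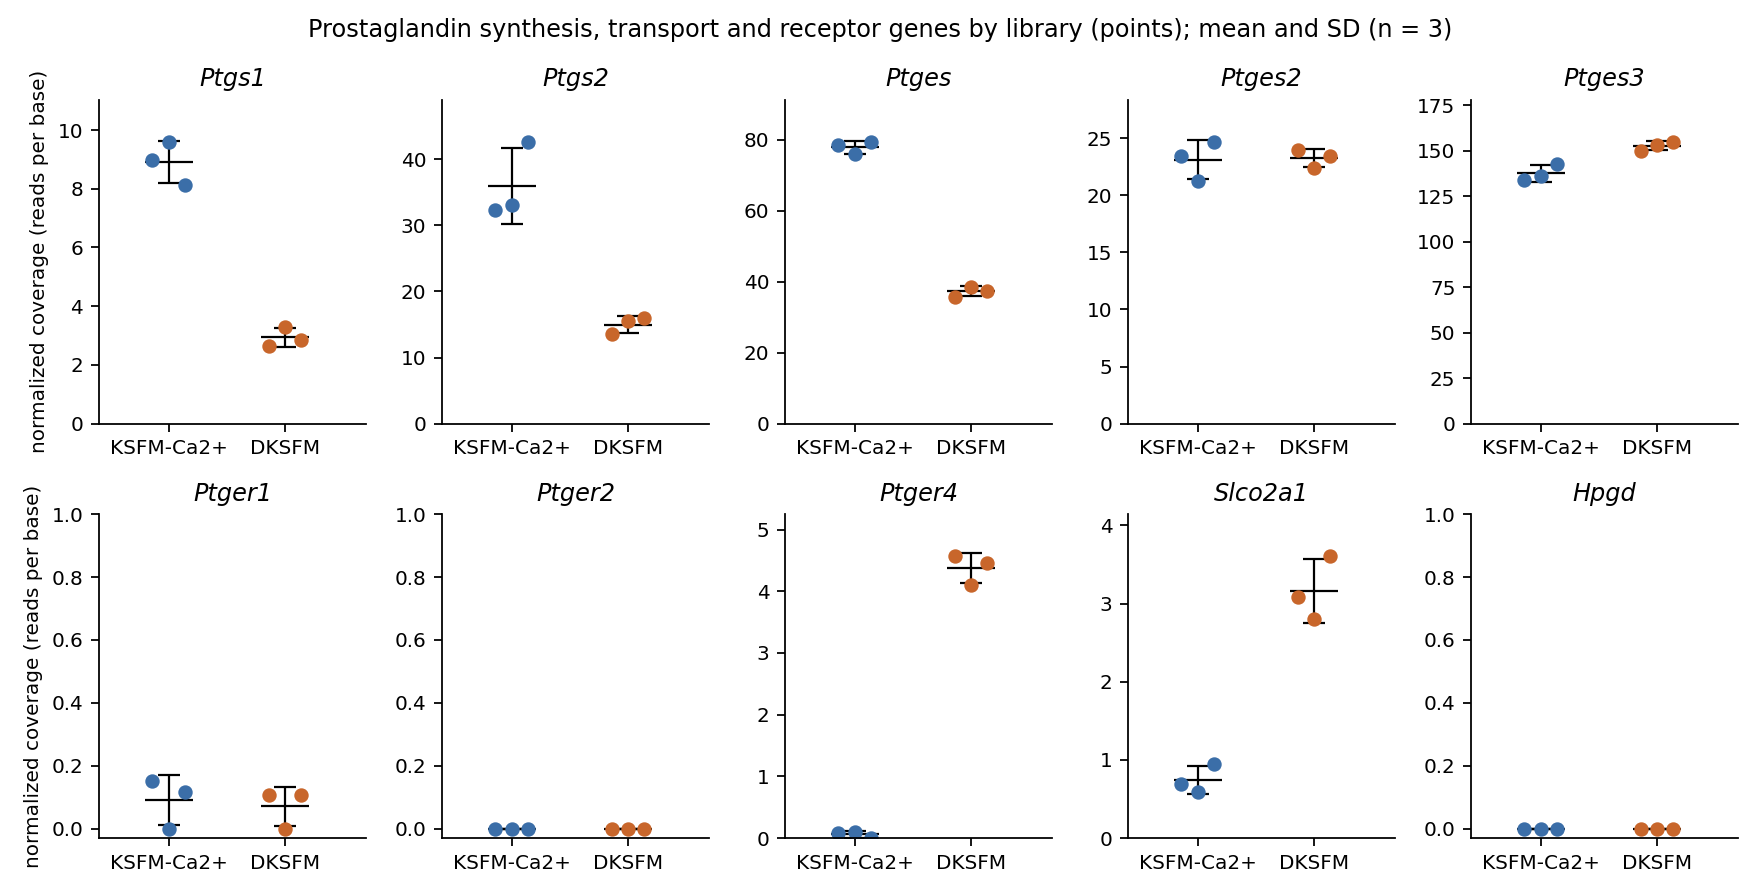
Normalized coverage (reads per base) of each of the 10 genes on its own axis from 0, with 1 point per library (blue, KSFM-Ca2+; orange, DKSFM) and bars for the mean and SD of 3 libraries. *Ptgs1*, *Ptgs2* and *Ptges* lay lower in the DKSFM cells, *Ptger4* and *Slco2a1* lay higher, *Ptges2* overlapped, and *Ptger1*, *Ptger2* and *Hpgd* were at or near 0.

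Promoter sequences are shown for the 3 synthesis genes that were lower in the DKSFM cells, since they moved together, and for the receptor gene that moved the other way. They are the 250 bases before the RefSeq start of each gene (GRCm38.p6), written 5′ to 3′ on the strand of the gene. The windows are chr2:36230176-36230425 for *Ptgs1* and chr1:150099781-150100030 for *Ptgs2*, both on the plus strand, and chr2:30903298-30903547 for *Ptges* and chr15:5244188-5244437 for *Ptger4*, both on the minus strand. Capitals mark matches to any of the motifs searched.
Ptgs1: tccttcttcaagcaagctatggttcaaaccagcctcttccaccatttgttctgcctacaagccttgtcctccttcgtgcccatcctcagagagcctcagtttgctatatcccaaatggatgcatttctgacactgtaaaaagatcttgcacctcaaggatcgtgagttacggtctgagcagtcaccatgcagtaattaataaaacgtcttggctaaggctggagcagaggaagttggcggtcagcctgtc
Ptgs2: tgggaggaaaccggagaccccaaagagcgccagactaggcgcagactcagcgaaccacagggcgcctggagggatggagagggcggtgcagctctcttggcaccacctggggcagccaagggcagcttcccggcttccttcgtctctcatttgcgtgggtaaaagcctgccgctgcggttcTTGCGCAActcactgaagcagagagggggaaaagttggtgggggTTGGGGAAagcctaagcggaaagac
Ptges: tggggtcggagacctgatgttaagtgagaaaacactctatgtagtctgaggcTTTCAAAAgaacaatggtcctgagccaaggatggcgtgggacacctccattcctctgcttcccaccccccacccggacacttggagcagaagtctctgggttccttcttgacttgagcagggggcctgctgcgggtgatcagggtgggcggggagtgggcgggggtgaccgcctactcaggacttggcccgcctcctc
Ptger4: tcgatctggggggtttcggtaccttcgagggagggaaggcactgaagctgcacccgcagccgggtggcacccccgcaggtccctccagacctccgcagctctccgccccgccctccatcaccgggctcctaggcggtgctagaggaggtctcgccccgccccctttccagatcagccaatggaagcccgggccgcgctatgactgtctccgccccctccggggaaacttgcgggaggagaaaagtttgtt

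A set of 7 motifs was searched on both strands. The TATA box was written as TATAAA. The E box was written as CACGTG, which reads the same on both strands. The cAMP response element was searched whole, as TGACGTCA, and in a short form, CGTCA, that lies within it. The AP-1 motif was written as TGANTCA and the C/EBP motif as TTNNGNAA, and the NF-kappaB consensus was searched too. The *Ptgs2* window held TTNNGNAA at 69 to 62 bases before the start, as TTGCGCAA on both strands, and again at 25 to 18 bases as TTGGGGAA. The *Ptges* window held the same motif on the other strand, at 198 to 191 bases before the start. The windows of *Ptgs1* and *Ptger4* held none of the 7 motifs, so no motif was found in all 3 synthesis genes that fell. Among 32851 promoters of the same length, the C/EBP motif was in 36.8%, the short cAMP response element in 17.8% and the whole one in 1.55%. The TATA box was in 12.4%, the NF-kappaB consensus in 7.25%, the AP-1 motif in 6.75% and the E box in 6.02%. Of the other members in the RefSeq table, *Ptges2* held the E box and the C/EBP motif, *Ptges3* the NF-kappaB consensus, *Slco2a1* the TATA box at 29 to 24 bases before its RefSeq start, and *Ptger2* and *Hpgd* the C/EBP motif. The *Slco2a1* window lies inside the span that GENCODE gives for this gene, within an exon of its coding transcript, and not upstream of it. A match is a description of these letters and not a site that was shown to be used. Bases after the RefSeq start or further upstream were not searched, so a motif missing from a window may lie outside it. In all, 9 of the 10 genes had a promoter in the table, and *Ptger1* did not.

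Both cyclooxygenase genes were expressed in both lines and fell in the DKSFM cells. *Ptgs1* (chr2:36230426-36252272, plus strand) encodes the cyclooxygenase that many tissues make at a steady level. It was listed at 11.8, 9.7 and 6.9 in KSFM-Ca2+ replicates 1 to 3 and at 2.5, 3.3 and 2.7 in DKSFM replicates 1 to 3. After scaling these became 8.99, 9.59 and 8.14 in the KSFM-Ca2+ cells and 2.65, 3.30 and 2.86 in the DKSFM cells. Every KSFM-Ca2+ library was above every DKSFM library, with no overlap. The mean normalized coverage was 8.91 ± 0.729 (SD, n = 3) in the KSFM-Ca2+ cells and 2.94 ± 0.328 (SD, n = 3) in the DKSFM cells. The log2 fold change was -1.57 (SE 0.11, 95% interval -1.82 to -1.32), 2.97-fold lower in the DKSFM cells, with an adjusted p of 2.74e-06. In the order of all tested genes by mean normalized coverage, *Ptgs1* stood above 30.1% of them in the KSFM-Ca2+ cells and above 15.7% in the DKSFM cells.

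*Ptgs2* (chr1:150100031-150108227, plus strand) encodes the inducible cyclooxygenase, the form that cytokines, growth factors and ultraviolet light raise in skin. Its normalized coverage was 32.2, 33.1 and 42.6 in the KSFM-Ca2+ libraries and 13.6, 15.5 and 15.9 in the DKSFM libraries. The 3 KSFM-Ca2+ libraries were again all higher, and replicate 3 was the highest of them. Means were 36.0 ± 5.74 and 15.0 ± 1.23 (SD, n = 3 each). The log2 fold change was -1.25 (SE 0.11, 95% interval -1.51 to -0.99), which is 2.38-fold lower in the DKSFM cells (adjusted p = 1.34e-05). The interval includes changes just under 2-fold. By mean normalized coverage *Ptgs2* exceeded 58.6% of the genes tested in the KSFM-Ca2+ cells and 38.1% in the DKSFM cells.

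*Ptgs2* was the more abundant cyclooxygenase mRNA in every library, by coverage per base. The ratio of *Ptgs2* to *Ptgs1* coverage, which needs no scaling between libraries, was 3.58, 3.45 and 5.23 in the KSFM-Ca2+ libraries and 5.12, 4.70 and 5.56 in the DKSFM libraries. The lines overlapped in this ratio, because KSFM-Ca2+ replicate 3 lay within the range of the DKSFM libraries. The difference of the mean log2 ratios was 0.32 and did not pass (two-sided exact permutation test, p = 0.3), and the smallest p that 3 against 3 libraries allow is 0.1. With only the libraries that carry the word combined in the names of their files, where KSFM-Ca2+ replicate 3 alone stands for its line, the difference was -0.06, and without KSFM-Ca2+ replicate 3 it was 0.51, so its sign and size depend on the libraries used.

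The membrane-bound synthase gene *Ptges* changed, and the other genes named for prostaglandin E synthase activity did not change by 2-fold. *Ptges* (chr2:30889471-30929863, minus strand) encodes the inducible microsomal prostaglandin E synthase that works together with *Ptgs2*, and its RefSeq start lies inside this annotated span. Its normalized coverage was 78.4, 75.9 and 79.4 in the KSFM-Ca2+ cells and 35.8, 38.6 and 37.5 in the DKSFM cells. The lines were far apart compared with the spread within each of them, 77.9 ± 1.78 against 37.3 ± 1.41 (SD, n = 3 each). The log2 fold change was -1.06 (SE 0.04, 95% interval -1.15 to -0.97; adjusted p = 9.22e-08), 2.09-fold lower in the DKSFM cells. Changes just under 2-fold lie within this interval too.

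*Ptges2* (chr2:32395896-32405772, plus strand), which encodes a second membrane-associated synthase, had a normalized coverage of 23.4, 21.3 and 24.7 in the KSFM-Ca2+ libraries and 24.0, 22.4 and 23.4 in the DKSFM libraries. The lines overlapped completely in this gene. Its log2 fold change was 0.01 (SE 0.06, 95% interval -0.13 to 0.16, adjusted p = 0.867), and the sign depends on the scaling, being negative with library totals and with quantile normalization. The interval leaves room for a change of well under 2-fold in either direction.

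*Ptges3* (chr10:128058954-128077272, plus strand) encodes the cytosolic synthase, better known as the HSP90 co-chaperone p23, and was the most abundant of the 10 genes. Its normalized coverage was 134, 136 and 143 in the KSFM-Ca2+ libraries and 150.0, 153 and 155 in the DKSFM libraries. The DKSFM libraries were all higher, by a small margin. The log2 fold change was 0.15 (SE 0.03, adjusted p = 0.00321), a change of 1.11-fold, and it no longer passed in 5 of the 16 alternatives with at least 2 libraries per line. These were the fits without KSFM-Ca2+ replicate 1 or 2 or DKSFM replicate 2 or 3 and the model without a trend, with adjusted p-values from 0.0107 to 0.0152, where the 16 ranged from 0.000441 to 0.0152. Of the 1998 different stretches of 85 bases in *Ptges3* transcripts, 20.0% also occur in transcripts of *Ptges3-ps* or *Gm11893*, so reads of these copies cannot all be told apart.

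The ratio of *Ptges* to *Ptges2* coverage sets these synthases side by side within each library. It was 3.35, 3.57 and 3.22 in the KSFM-Ca2+ libraries and 1.49, 1.72 and 1.60 in the DKSFM libraries, with no overlap. The difference of the mean log2 ratios was -1.07 (two-sided exact permutation test, p = 0.1, the smallest possible). The ratio of *Ptges* to *Ptgs2* coverage was 2.43, 2.29 and 1.86 in the KSFM-Ca2+ libraries and 2.63, 2.49 and 2.36 in the DKSFM libraries. These overlapped, with a difference of 0.19 on the log2 scale (two-sided exact permutation test, p = 0.2).

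**Figure D2:**
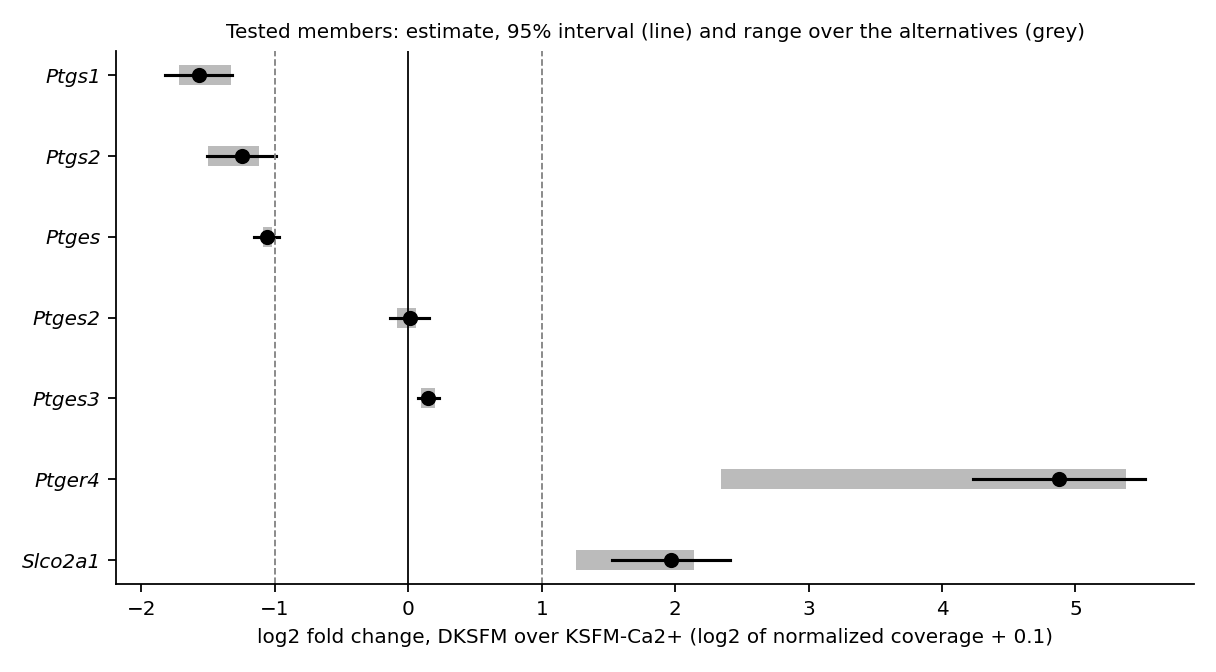
Log2 fold change of DKSFM over KSFM-Ca2+ cells for the 7 tested genes, from log2(normalized coverage + 0.1), with black points for estimates, black lines for 95% intervals and grey bars for the range over 17 alternatives (16 for *Ptger4*); dashed lines mark 2-fold. Estimates of *Ptgs1*, *Ptgs2* and *Ptges* lay below -1, those of *Ptges2* and *Ptges3* near 0, and those of *Slco2a1* and *Ptger4* above 1. *Ptger4* had the widest grey bar, 2.34 to 5.38. It entered the fit only through the DKSFM libraries and its size is set by the pseudocount, so its black line is not given as support.

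The genes of the prostaglandin E2 receptors had little or no coverage, except *Ptger4* in the DKSFM cells. *Ptger4* (chr15:5206661-5244187, minus strand) encodes EP4, a receptor that raises cAMP. It was listed at 0.1, 0.1 and 0 in KSFM-Ca2+ replicates 1 to 3 and at 4.3, 4.1 and 4.2 in DKSFM replicates 1 to 3. The KSFM-Ca2+ libraries were at or under the rounding step of the files, and the DKSFM libraries stood close together well above it. From the median transcript length, the listed values stand for about 4, 4 and 0 reads in the KSFM-Ca2+ libraries and 166, 159 and 162 reads in the DKSFM libraries. The fitted log2 fold change was 4.88, and 2.34 with a pseudocount of 1, so its size is set by the pseudocount. Because *Ptger4* entered the fit only through the libraries in which it was high, its p-value is not given as support. When every listed value is moved by 0.05 against the difference, the mean of the DKSFM cells is still at least 40.3-fold higher. Even so, *Ptger4* mRNA was modest in the DKSFM cells, above 19.7% of tested genes by normalized coverage.

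The annotated span of *Ptger4* overlaps *Ttc33* on the opposite strand, and the libraries were directional and aligned under a setting for strand, while whether the coverage values themselves were split by strand is not stated. *Ttc33* was listed at 44.2, 40.0 and 28.0 in the KSFM-Ca2+ cells and at 56.5, 61.9 and 59.0 across the DKSFM cells. Thus *Ttc33* was well covered in the KSFM-Ca2+ cells, where *Ptger4* was listed at 0.1 or 0. What reads of *Ttc33* add to the *Ptger4* value was not tested.

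*Ptger1* (chr8:83666678-83672753, plus strand) encodes EP1, which acts through calcium, and was listed at 0.2, 0 and 0.1 in the KSFM-Ca2+ cells and at 0.1, 0 and 0.1 across the DKSFM cells. These values overlap and lie at the rounding step. *Ptger2* (chr14:44988195-45003820, plus strand), the gene of the other cAMP-raising receptor EP2, was listed at 0 in all 6 libraries. None of 20 widely expressed genes looked up for comparison was listed at 0 in any library, but *Gusb*, named after its values were seen, was at 54.9, 41.3 and 38.7 in the KSFM-Ca2+ cells and at 0.1, 0.1 and 0.2 across the DKSFM cells.

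The 6 genes of the other prostanoid receptors did not pass the filter either. *Ptger3*, the gene of EP3, was listed at 0.3, 0 and 0 in the KSFM-Ca2+ cells and at 0.2, 0.9 and 0.2 across the DKSFM cells. *Ptgdr*, *Ptgfr* and *Ptgir* were listed at 0 throughout, and *Ptgdr2* and *Tbxa2r* at 0.1 in KSFM-Ca2+ replicate 1 and at 0 in the other 5 libraries. *Ptger4* in the DKSFM cells was therefore the only one of 9 prostanoid receptor genes with a listed value of 1 or more in any library.

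Uptake and oxidation end the signal. *Slco2a1* (chr9:102988712-103096002, plus strand) encodes the prostaglandin transporter that carries prostaglandin E2 into cells. Its listed coverage was 0.9, 0.6 and 0.8 in the KSFM-Ca2+ libraries and 2.9, 2.8 and 3.4 in the DKSFM libraries, or about 75, 50 and 67 reads against 243, 235 and 285. All DKSFM libraries were higher. The mean normalized coverage was 0.741 ± 0.182 and 3.16 ± 0.409 (SD, n = 3 each), and the log2 fold change was 1.97 (SE 0.19, 95% interval 1.53 to 2.41, adjusted p = 2.19e-05), 3.91-fold higher. It fell to 1.26 with a pseudocount of 1. The level remained low, above 16.4% of tested genes in the DKSFM cells and 7.09% in the KSFM-Ca2+ cells.

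*Hpgd* (chr8:56294585-56321043, plus strand) encodes the dehydrogenase that inactivates prostaglandin E2 once it is inside the cell. It was listed at 0 in all 6 libraries, so no level of the oxidizing enzyme was seen beside the transporter in either line.

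Set in order of normalized coverage, the KSFM-Ca2+ cells had *Ptges3* at 138, *Ptges* at 77.9, *Ptgs2* at 36.0, *Ptges2* at 23.1, *Ptgs1* at 8.91 and *Slco2a1* at 0.741. No neighbours in this order overlapped between libraries. In the DKSFM cells the order of means was *Ptges3* at 153, *Ptges* at 37.3, *Ptges2* at 23.3, *Ptgs2* at 15.0, *Ptger4* at 4.37, *Slco2a1* at 3.16 and *Ptgs1* at 2.94. *Ptgs2* and *Ptges2* had thus changed places, and *Slco2a1* and *Ptgs1* overlapped between libraries.

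Each gene was also set beside the tested genes that lie within 10 Mb of it on either side. The median log2 fold change of all tested genes was -0.0012. Around *Ptgs2* it was -0.51 over 50 genes, of which 80.0% were below 0, while *Ptgs2* itself was at -1.25. Around *Ptgs1* and *Ptges*, on the same chromosome, it was 0.10 over 159 and 215 genes. Of these neighbours, 41.5% and 41.4% were below 0, while *Ptgs1* was at -1.57 and *Ptges* at -1.06. The windows of *Ptgs1*, *Ptges* and *Ptges2* overlap, so their medians are not separate observations. The medians were 0.11 over 212 genes around *Ptges2*, 0.17 over 37 genes around *Ptger4*, 0.10 over 160 genes around *Slco2a1* and 0.30 over 94 genes around *Ptges3*. Of the genes that were not tested, *Hpgd* and *Ptger1*, both on chromosome 8, had surroundings at -0.65 over 35 genes and -0.47 over 103 genes, close to those of *Ptgs2*, and *Ptger2* had 0.01 over 83 genes. What the surroundings add to the change of *Ptgs2*, *Ptgs1*, *Ptges* or any other of these genes was not tested. *Ptges3*, at 0.15, lay under the median of its surroundings.

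Within 1 Mb of *Ptgs2*, the 5 other tested genes were all lower in the DKSFM cells, and they are named here after their values were seen. *Pla2g4a*, the cytosolic phospholipase that frees arachidonic acid, lies 0.27 Mb away and had a log2 fold change of -0.40. *Odr4* and *Tpr* had -0.44 and -0.71. The noncoding *Ptgs2os*, which starts 0.025 Mb from *Ptgs2*, had a mean normalized coverage of 1.60 in the KSFM-Ca2+ cells and 0.801 in the DKSFM cells (log2 fold change -1.01), with an adjusted p of 0.0121 that missed the threshold. *Ptgs2os2*, 0.059 Mb away, had a mean of 2.31 in the KSFM-Ca2+ cells and was listed at 0 in the DKSFM libraries.

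**Figure D3:**
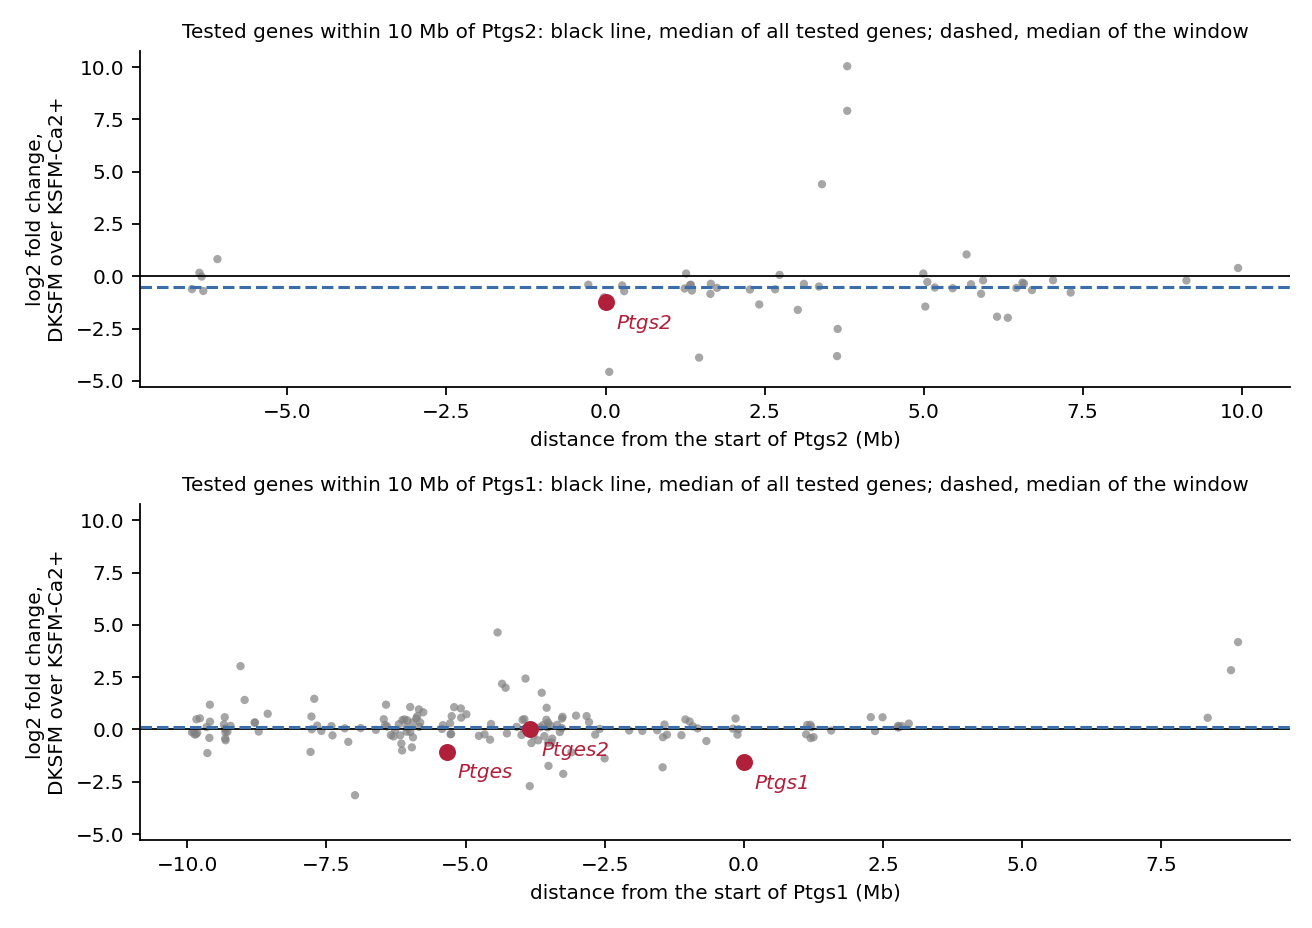
Log2 fold change of DKSFM over KSFM-Ca2+ cells (vertical axes) for tested genes within 10 Mb of the start of *Ptgs2* (upper panel) and *Ptgs1* (lower panel), against distance in Mb; red points mark the prostaglandin genes, black lines the median of all tested genes and dashed lines the median of the window. The window of *Ptgs2* was centred at -0.51 and that of *Ptgs1* at 0.10.

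The genes with the pattern most like each cyclooxygenase gene were sought among tested genes with a mean coverage within 2-fold of it, by the root mean square difference of the 6 log2 values after centring each gene. For *Ptgs1*, among 2225 candidates, these were *Dennd2a* (0.0515), *Kctd12* (0.0792) and *Asah2* (0.0860). For *Ptgs2*, among 3995 candidates, they were *Agpat2* (0.101), *Arap1* (0.102) and *Paox* (0.105). Their log2 fold changes, from -1.60 in *Kctd12* to -1.13 in *Agpat2*, follow from this choice and are no separate finding.

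Further genes of the pathway are described by list, beside the median log2 fold change of -0.0012 and the shares of 13.2% higher and 10.5% lower by 2-fold or more in the DKSFM cells over all tested genes. Some listed genes passed the filter only through the line where they were higher. They could enter only in that direction, so the counts and medians of the lists are descriptions. Genes upstream of the cyclooxygenases, which release arachidonic acid or return it to lipids, were divided. Of 16 genes, 10 were tested, 2 were higher by at least 2-fold in the DKSFM cells and 1 in the KSFM-Ca2+ cells, and the median log2 fold change was 0.86. *Mgll*, *Pla2g2f* and *Pla2g4c* passed the filter only through the DKSFM libraries, which lifts this median. *Mgll*, whose enzyme can supply arachidonic acid from monoacylglycerol, was listed at 0 in the KSFM-Ca2+ cells and at 1.6, 2 and 2.2 across the DKSFM cells. The secreted phospholipase gene *Pla2g2f* was likewise at 0 in the KSFM-Ca2+ cells and at 0.9, 1.6 and 0.7 across the DKSFM cells. *Acsl4*, which binds arachidonic acid to coenzyme A, fell in the DKSFM cells, with a log2 fold change of -1.02 (adjusted p = 3.84e-08), which is -0.98 and under 2-fold with quantile normalization. The count of 2 genes higher in the DKSFM cells became 0 with a filter on every library, which genes listed at 0 in a line cannot pass, and 4 without KSFM-Ca2+ replicate 1 or with the combined libraries only.

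Synthases of the other prostanoids gave little beside *Ptges*. Of 7 genes, 2 passed the filter and neither changed by 2-fold. *Akr1b3*, whose aldose reductase can make prostaglandin F2 alpha, had a log2 fold change of -0.89, and *Cbr1* had 0.10. With no filter 2 of the 7 rose by 2-fold or more towards DKSFM, and with the combined libraries only, where KSFM-Ca2+ replicate 3 alone stands for its line, 1 fell by as much. *Ptgis*, *Tbxas1* and *Fam213b* were listed at 0 in all libraries, and *Ptgds* and *Hpgds* did not exceed 0.3. The 4 genes of export and later breakdown were all tested, and none changed by 2-fold, with a median of 0.22. These were *Abcc4* at 0.18, *Ptgr1* at 0.54, *Ptgr2* at -0.64 and *Zadh2* at 0.27 on the log2 scale. The exporter *Abcc4*, with an adjusted p of 0.0203, missed the threshold and the other 3 passed it.

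Of 14 genes of the lipoxygenase and leukotriene branch, which also uses arachidonic acid, 5 were tested, with 2 higher in the DKSFM cells, 1 higher in the KSFM-Ca2+ cells and a median of 0.80. *Alox12* was listed at 0.1 in each KSFM-Ca2+ library and at 4.1, 4.4 and 3.9 across the DKSFM libraries. The receptor gene *Ltb4r2* was higher in the DKSFM cells (log2 fold change 1.12) and *Cysltr1* was lower (-1.96, and -0.91 with a pseudocount of 1). Under a filter on every library the counts were 1 and 0.

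Below the receptors, 16 of 17 genes of the cAMP arm were tested, with 4 higher in the DKSFM cells, 2 higher in the KSFM-Ca2+ cells and a median of -0.14. The adenylyl cyclase genes differed in direction. *Adcy6* (log2 fold change 0.13) and *Adcy9* (0.97) had coverage in both lines and did not pass both limits. *Adcy3* was listed at 0.2 in each KSFM-Ca2+ library and at 17.9, 22 and 20.5 across the DKSFM libraries. *Adcy7* went the other way, from 32.7, 25 and 22.8 in the KSFM-Ca2+ libraries to 0.5, 0.7 and 1.1 in the DKSFM libraries. The phosphodiesterase genes *Pde4d* and *Pde4b*, whose enzymes break down cAMP, were higher in the DKSFM cells, with log2 fold changes of 1.68 and 1.49. With a pseudocount of 1, *Pde4d* was at 0.99, under 2-fold, and the count of higher genes was 2 in place of 4. The arrestin gene *Arrb1*, the other gene counted as higher, is outside the naming rule because of its low level, and was listed at 0 in the KSFM-Ca2+ cells and at 0.7, 0.9 and 0.5 in the DKSFM cells. *Prkar2b*, a regulatory subunit of protein kinase A, was lower (-3.32, and -1.23 with a pseudocount of 1). A filter on every library left 2 higher and 1 lower. *Ptger4* and *Adcy3* were thus both seen mainly in the DKSFM cells, and both passed the filter only through those libraries. *Adcy7* was seen mainly in the KSFM-Ca2+ cells. No link between the receptor and these cyclase genes was tested.

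Among 20 known inducers and mRNA regulators of *Ptgs2*, 19 were tested, with 4 higher in the DKSFM cells, 5 higher in the KSFM-Ca2+ cells and a median of -0.12. The cytokine gene *Il1a* was lower in the DKSFM cells, with a log2 fold change of -7.80, and -6.28 with a pseudocount of 1. *Tnf* was listed at 15.3, 12.1 and 13 in the KSFM-Ca2+ cells and at 0 across the DKSFM cells. *Areg*, an EGF receptor ligand, was also lower in the DKSFM cells (log2 fold change -3.14, and -2.64 with a pseudocount of 1). In the other direction went the transcription factor genes *Jun* (2.04) and *Cebpd* (1.46) and the receptor gene *Egfr* (1.33). Outside the naming rule, the counts also hold the TNF receptor gene *Tnfrsf1a* (1.04), the ligand gene *Hbegf* (-2.55) and *Nfkbia* (-2.32), which encodes an inhibitor of NF-kappaB, and a filter on every library left 3 lower genes in place of 5. The other 10 tested genes did not pass both limits, and their log2 fold changes lay between -0.87 in *Il1r1* and 0.94 in *Fos*. No link between these genes and the lower *Ptgs2* was tested.

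The 8 HSP90 chaperone partners of *Ptges3* were all tested and none changed by 2-fold. Their median was -0.29, and 7 of them had an adjusted p under 0.01, as did 72.6% of all tested genes, where *Ptges3* itself had a log2 fold change of 0.15.

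**Figure D4:**
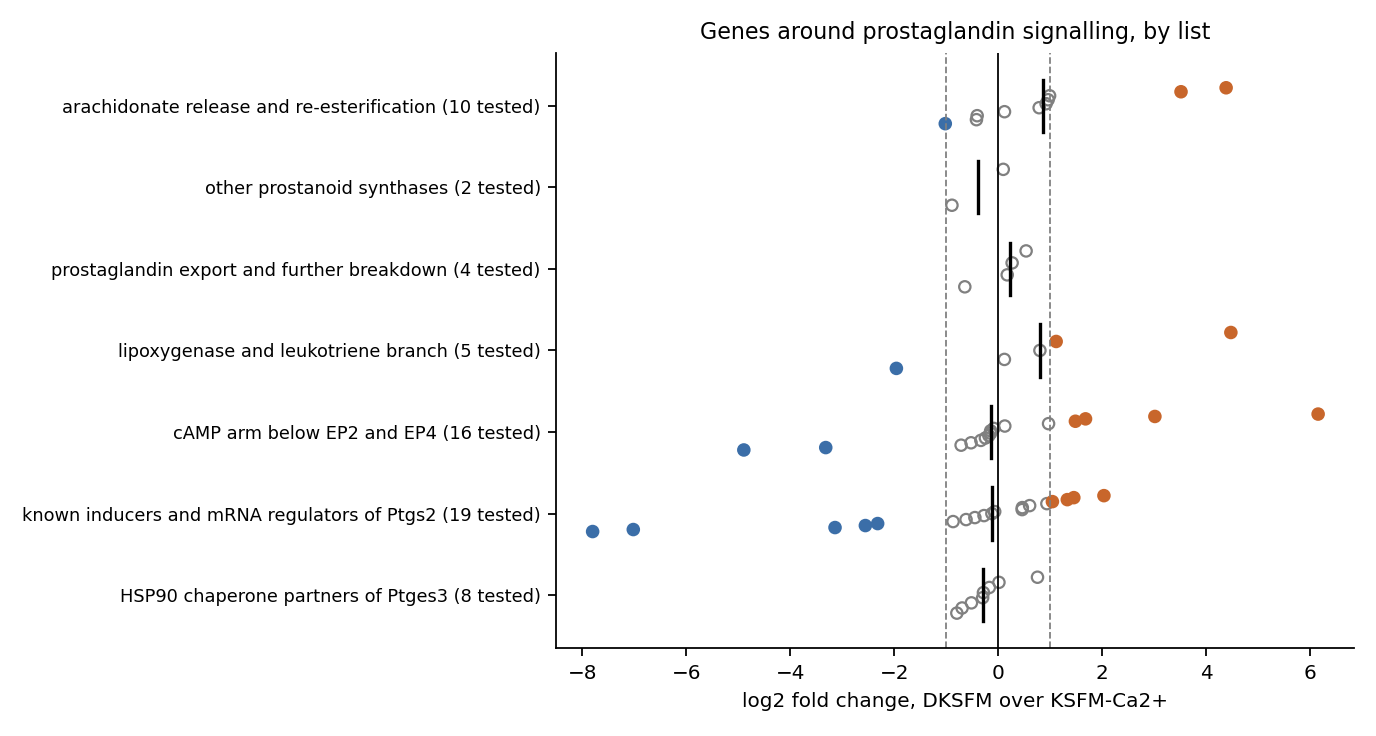
Log2 fold change of DKSFM over KSFM-Ca2+ cells (horizontal axis) for the tested genes of 7 lists around the prostaglandin genes; filled points passed the adjusted p of 0.01 with at least 2-fold change (orange, higher in DKSFM; blue, higher in KSFM-Ca2+), open points did not pass both, and short black bars are list medians; genes listed at 0 in a line (*Mgll*, *Pla2g2f*, *Arrb1*, *Tnf*) stand where the pseudocount puts them. The medians lay between -0.39 and 0.86, with *Il1a* (-7.80, and -6.28 with a pseudocount of 1) and *Adcy3* (6.16, and 4.19) at the ends.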

How the data were processed

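Gene expression was measured in 3 KSFM-Ca2+ and 3 DKSFM libraries, grouped by the sample labels. The authors prepared directional poly(A) libraries, read them as single reads of 85 bases and aligned them to mm10 with STAR under a first-strand setting. They deposited a signal, the mean read coverage per base of 24982 genes, to 1 decimal and without scaling to library size. How coverage was computed from the alignments, whether it was split by strand, and what combined means in the file names of KSFM-Ca2+ replicate 3 and the DKSFM replicates are not given in the sources used here. Because coverage is not a count, limma 3.58.1 (R 4.3.3) with an intensity trend was used in place of a count model. Libraries were scaled by trimmed mean of M values without weights (trims of 30% of M and 5% of A values). Intervals are 95% intervals of that model and cover the spread between libraries. *Ptgs2* to *Ptgs1* and other ratios were tested by exact permutation.

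Genes named from a list were up to 3 per direction with the largest change past both limits, without overlap and with a mean of 1 or more in the line that was higher. The members and lists were chosen with earlier results of these data known. Positions are those of GENCODE M21, found by symbol for 12291 of 12409 tested genes, and promoters from RefSeq (GRCm38.p6). Overlaps with other genes and shared stretches of 85 bases were checked in the GENCODE annotation and transcripts. Approximate reads are coverage times median coding transcript length over 85. The procedure was tested on simulated data. The alternatives were 3 scalings, 2 filters, 2 pseudocounts, no trend, a replicate block, an adjusted p of 0.05, each library left out, and combined libraries only. Python 3.11.15 and matplotlib 3.10.9 were also used. Culture, qPCR and protein measurements of the study are not analysed here.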

Additional observations from a re-analysis of the deposited data

How the results depend on the processing

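The members and named genes gave 375 log2 fold changes under the 16 alternatives with at least 2 libraries per line. Of these, 366 kept their direction and their side of the threshold, 5 (all *Ptges3*) no longer passed and 4 (all *Ptges2*) changed sign. Most of these genes were named for the largest changes past both limits in these same data, so this tally lends them no separate support. The settings for adjusted p, trend, block and filter also left the log2 fold changes as they were. With the combined libraries only, KSFM-Ca2+ replicate 3 alone stands for its line and the spread comes from the DKSFM libraries, so it is left out of this tally. The ranges and list counts that follow include it. Log2 fold changes ranged from -1.72 to -1.33 for *Ptgs1*, -1.50 to -1.12 for *Ptgs2*, -1.09 to -1.02 for *Ptges*, 1.26 to 2.14 for *Slco2a1* and 2.34 to 5.38 for *Ptger4*. *Ptges2*, at 0.01, was at -0.00068 with library totals, -0.035 with quantile normalization, -0.084 with the combined libraries only and between -0.046 and 0.060 when a library was left out, all within its 95% interval. The log2 difference of the *Ptgs2* to *Ptgs1* ratio was -0.057 with the combined libraries only, where the test says nothing. A filter that asked for coverage in every library left 1032 genes, and 1 of the members, higher in the DKSFM cells by 2-fold or more, because genes at or near 0 in the KSFM-Ca2+ cells, such as *Ptger4*, no longer enter. No alternative moved a direction count of a list by more than 2 genes. Replicate numbers did not pair the libraries: the deviations of same-numbered libraries had correlations of -0.00509, 0.0239 and -0.0061 across genes, and not every library correlated best with its own number. With a replicate block, 8726 genes in place of 9007 had an adjusted p under 0.01, and 6 of the members in both. The other scalings moved the median of all genes by under 0.1. No counts were used, and the 0.1 step of the files and the depth both limit what could be seen of *Ptger1*, *Ptger2* and *Hpgd*.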
